A study of Bos taurus with 16 samples.

Results

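The 5 genes described here, AURKB, CCNB2, CENPF, PRC1 and NUSAP1, act in mitosis, the stage at which a cell divides its chromosomes between its daughters. They were found by gene name, systematic name or description among 15208 bovine probes of the array, of which 7101 carried a symbol and stood for 6769 genes. Each gene matched 1 probe, so the members are 5 probes, and all 5 entered the tests among the 11941 probes tested.

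RNA of the corpus luteum, the gland that forms in the ovary from the ruptured follicle and secretes progesterone, was measured in 16 Japanese Black cows, 1 gland and 1 one-colour array per cow. Counting insemination as day 1, 4 cows were cyclic, at the cycle's day 10-12, while of the pregnant ones 4 were at days 20-25, 4 at days 40-45 and 4 at days 150-160. The ovaries were collected within 10-30 min of exsanguination. The series asked how gene expression in the gland of the cycle and of pregnancy differs. Pregnant cows gave older glands, and the age of a gland and the pregnancy cannot be told apart.

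Mitosis is driven by cyclin B bound to the kinase CDK1, and it is completed by the chromosomal passenger complex, the kinetochore and proteins that bundle the microtubules of the spindle. In vertebrate cells transcripts of these genes accumulate late in the cell cycle and are low in cells that have stopped dividing, which is why they are read as markers of dividing cells. The corpus luteum grows fast after ovulation, with many dividing endothelial cells, while its large progesterone-secreting cells are not known to divide.

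The probes are 60 bases long. Parts of their sequences, as the array files give them, are shown because each gene rests on a single probe, and what that probe matches sets what its value means. The capitals in the CCNB2 probe mark bases that another, unnamed probe also holds, and those in the unnamed probe mark the bases it shares with CCNB2. The capitals in the NUSAP1 probe mark AATAAA, the letters of the common polyadenylation signal.
AURKB probe, bases 1 to 30: tctgtacatgtgtagttaggaggagggagg
CCNB2 probe, bases 31 to 60: GTCTATCTCATGAAACCTCTTAGACCAGTT
Unnamed probe, bases 31 to 60: TAGACCAGTTttctaaatgtatattgagga
CENPF probe, bases 1 to 60: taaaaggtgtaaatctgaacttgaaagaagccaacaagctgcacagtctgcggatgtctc
PRC1 probe, bases 1 to 30: tggttcttggaagcttacaggtgtggattt
NUSAP1 probe, bases 31 to 60: gtacggcttgagattttcatgAATAAAatt

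On the given strand AATAAA occurred in 1 of the 5 probes and in 11.3% of all 15208 probes. GC content lay between 36.7% and 45.0% over the 5 probes, against a median of 43.3% over all probes. The CCNB2 probe shared 40 of its bases with the unnamed probe, whose first 40 bases are bases 21 to 60 of the CCNB2 probe. The longest run that any of the other 4 probes shared with another probe of the array, on either strand, was 15 bases. The AURKB and CCNB2 probes carry names tied to RefSeq accessions, those of CENPF and NUSAP1 were named through gene IDs, and that of PRC1 was named from a human gene in its annotation.

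All 5 probes were well above background and unsaturated on all 16 arrays. Levels are log2 signals minus the 75th percentile of the array, so a level of 0 equals that percentile and a fall of 1 is a halving of signal. Levels are compared for 1 probe at a time. The 75th percentile of an array was 2020 to 4288 signal units, and the share of probes above background was 71.9% to 79.6%. All 8 tested markers of steroidogenic luteal cells were well above background on all 16 arrays. The arrays lay on 2 slides, each with replicates 1 and 2, or 3 and 4, of every group. The position on the slide went with the group, and the 2 cannot be told apart. The labels name separate animals, and the number of arrays limits the precision of every value.

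On days 20-25 of pregnancy none of the 5 genes passed the test against cyclic cows. By limma 0 of 5 were called, against 0.0754% of all probes called lower. An unadjusted p under 0.05 was found for 1 of 5, against 14.1% of all probes. On days 40-45 AURKB was 3.55 times lower than in cyclic cows, 1 of 5 genes called against 0.695% of all probes. In late pregnancy, on days 150-160, AURKB, CCNB2 and PRC1 were 5.41, 3.99 and 3.33 times lower than in cyclic cows, 3 of 5 genes called against 3.32% of all probes. CENPF and NUSAP1 had lower means on days 150-160 than in cyclic cows without passing the test. For CCNB2, CENPF, PRC1 and NUSAP1 both cyclic cows of slide 1 stood above both of slide 2. Because whole glands were measured, fewer dividing cells and less RNA of these genes per cell cannot be told apart.

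AURKB encodes the kinase of the chromosomal passenger complex, which corrects the attachment of chromosomes to the spindle. In replicates 1 to 4 of the cyclic cows its level was -1.09, -2.02, -2.00 and -1.96. In pregnancy it was -2.35, -2.61, -3.23 and -2.08 on days 20-25. On days 40-45 it was -3.73, -3.71, -4.00 and -2.93, and on days 150-160 it was -3.68, -4.38, -4.43 and -4.31. None of the 12 pregnant cows reached the lowest cyclic cow, and the values of days 150-160 all lay below those of days 20-25. The neighbouring stages of pregnancy overlapped. Group means, with the SD of 4 cows, were -1.77 ± 0.45 (cyclic), -2.57 ± 0.49 (days 20-25), -3.59 ± 0.46 (days 40-45) and -4.20 ± 0.35 (days 150-160).

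By limma, with Benjamini-Hochberg adjustment over all probes tested, the difference of AURKB from cyclic cows was -0.80 on days 20-25 (SE 0.29, adjusted p = 0.244), although the groups did not overlap. On days 40-45 it fell by 1.83 on the log2 scale (SE 0.29, adjusted p = 0.00744). On days 150-160 it fell by 2.44 (log2, SE 0.29, adjusted p = 0.000274). Of the 5 genes it alone passed the moderated F test over the 4 groups (adjusted p = 0.00144), and within slide 1 and slide 2 it did not (adjusted p = 0.102 and 0.310). That test called 3.85% of all probes. CCNB2 and PRC1 missed its threshold (adjusted p = 0.0551 and 0.0626). Both passed it with slide as a block (adjusted p = 0.0469 and 0.0437) and without replicate 3 of days 20-25 (adjusted p = 0.0239 and 0.0458). CCNB2 also passed without replicate 4 of days 40-45 (adjusted p = 0.0473), and PRC1 without cyclic replicate 3 (adjusted p = 0.0314). The calls of AURKB held without any 1 of the 16 arrays.

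CCNB2 encodes cyclin B2, a partner of CDK1 at entry into mitosis. Its level was -1.76, -2.81, -3.50 and -3.59 in cyclic cows. The 4 cows of days 20-25 had -2.60, -3.48, -4.42 and -2.47. Those of days 40-45 had -4.38, -4.53, -4.52 and -3.46, and those of days 150-160 had -4.26, -5.16, -4.84 and -5.38. The values of days 150-160 all lay below those of cyclic cows, whereas the other stages of pregnancy overlapped them. Group means, with the SD of 4 cows, were -2.92 ± 0.84 (cyclic), -3.24 ± 0.90 (days 20-25), -4.22 ± 0.51 (days 40-45) and -4.91 ± 0.49 (days 150-160). Against cyclic cows the difference on days 20-25 and days 40-45 was -0.32 and -1.31 (limma, SE 0.46 each, adjusted p = 0.774 and 0.187). On days 150-160 CCNB2 fell, with a change of -2.00 (SE 0.46, adjusted p = 0.0178).

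The unnamed probe that shares 40 bases with the CCNB2 probe was found by the sequence alone. Its level was -3.33, -4.63, -5.26 and -6.12 in cyclic cows. Days 20-25 gave -4.33, -5.31, -6.18 and -4.13. Days 40-45 gave -5.35, -6.39, -6.24 and -5.09, and days 150-160 gave -4.49, -6.96, -6.32 and -8.77. It was well above background on all arrays of the first 3 groups and on 2 of the 4 arrays of days 150-160. In cyclic cows it kept the order of the CCNB2 probe, with replicate 1 highest and replicate 4 lowest. Over the 16 arrays the 2 probes had r = 0.871, and r = 0.847 after group means were removed. Its difference from cyclic cows was -0.15 on days 20-25 and -0.93 on days 40-45 (limma, adjusted p = 0.948 and 0.655). On days 150-160 it was -1.80 (SE 0.77, adjusted p = 0.173), in the direction of the CCNB2 probe and without passing the test.

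CENPF encodes a large protein of the kinetochore, the structure that ties a chromosome to the spindle. Its level was -1.59, -2.93, -4.05 and -4.53 in cyclic cows. Early pregnancy, days 20-25, gave -2.48, -3.52, -4.47 and -3.07. At days 40-45 the values were -4.51, -4.79, -4.76 and -3.81, and on days 150-160 they were -4.34, -5.38, -5.14 and -4.58. Cyclic cows spread over 2.94 units, and their lowest value lay within the range of days 150-160. Group means, with the SD of 4 cows, were -3.27 ± 1.31 (cyclic), -3.38 ± 0.84 (days 20-25), -4.47 ± 0.46 (days 40-45) and -4.86 ± 0.48 (days 150-160). Against cyclic cows the difference was -0.11 on days 20-25 and -1.19 on days 40-45 (limma, SE 0.55 each, adjusted p = 0.946 and 0.328). On days 150-160 it was -1.59 (SE 0.55, adjusted p = 0.0902), with a 95% interval of the difference from -2.75 to -0.42. Without cyclic replicate 4 it passed (change -2.00, adjusted p = 0.0456).

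PRC1 encodes a protein that bundles antiparallel microtubules at the middle of the spindle, where the cell then divides. Its level was -0.06, -0.25, -1.91 and -1.77 in cyclic cows. In the cows of days 20-25 it was -0.69, -1.43, -1.99 and -0.70. In those of days 40-45 it was -2.04, -1.95, -2.09 and -1.30, and in those of days 150-160 -2.48, -2.76, -2.59 and -3.11. The 4 values of days 150-160 lay below those of every other cow, and the remaining groups overlapped. Group means, with the SD of 4 cows, were -1.00 ± 0.98 (cyclic), -1.20 ± 0.63 (days 20-25), -1.84 ± 0.37 (days 40-45) and -2.73 ± 0.27 (days 150-160). On days 20-25 and days 40-45 the difference from cyclic cows was -0.20 and -0.85 (limma, SE 0.41 each, adjusted p = 0.844 and 0.357). On days 150-160 PRC1 fell by 1.74 (log2, SE 0.41, adjusted p = 0.0190). This call was lost without replicate 2 of the cyclic cows, where the change was -1.49 (adjusted p = 0.0509), and in a fit of the 2 groups alone (adjusted p = 0.0765).

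NUSAP1 encodes a microtubule-binding protein of the spindle and the nucleolus. Its level was -0.86, -1.90, -2.38 and -2.24 in cyclic cows. The days 20-25 values were -1.11, -2.07, -2.48 and -1.13. The days 40-45 values were -2.41, -2.06, -2.45 and -1.62, and those of days 150-160 were -2.87, -3.36, -3.21 and -2.74. As with PRC1, the values of days 150-160 lay below those of every other cow. Group means, with the SD of 4 cows, were -1.84 ± 0.69 (cyclic), -1.70 ± 0.69 (days 20-25), -2.14 ± 0.38 (days 40-45) and -3.05 ± 0.29 (days 150-160). The difference from cyclic cows was 0.15 on days 20-25 and -0.29 on days 40-45 (limma, SE 0.36 each, adjusted p = 0.873 and 0.794). On days 150-160 it was -1.20 (SE 0.36, adjusted p = 0.0509), with a 95% interval from -1.96 to -0.44. It passed without cyclic replicate 3 (adjusted p = 0.0392) and without replicate 3 or 4 of days 20-25 (adjusted p = 0.0405 and 0.0443).

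**Figure D1:**
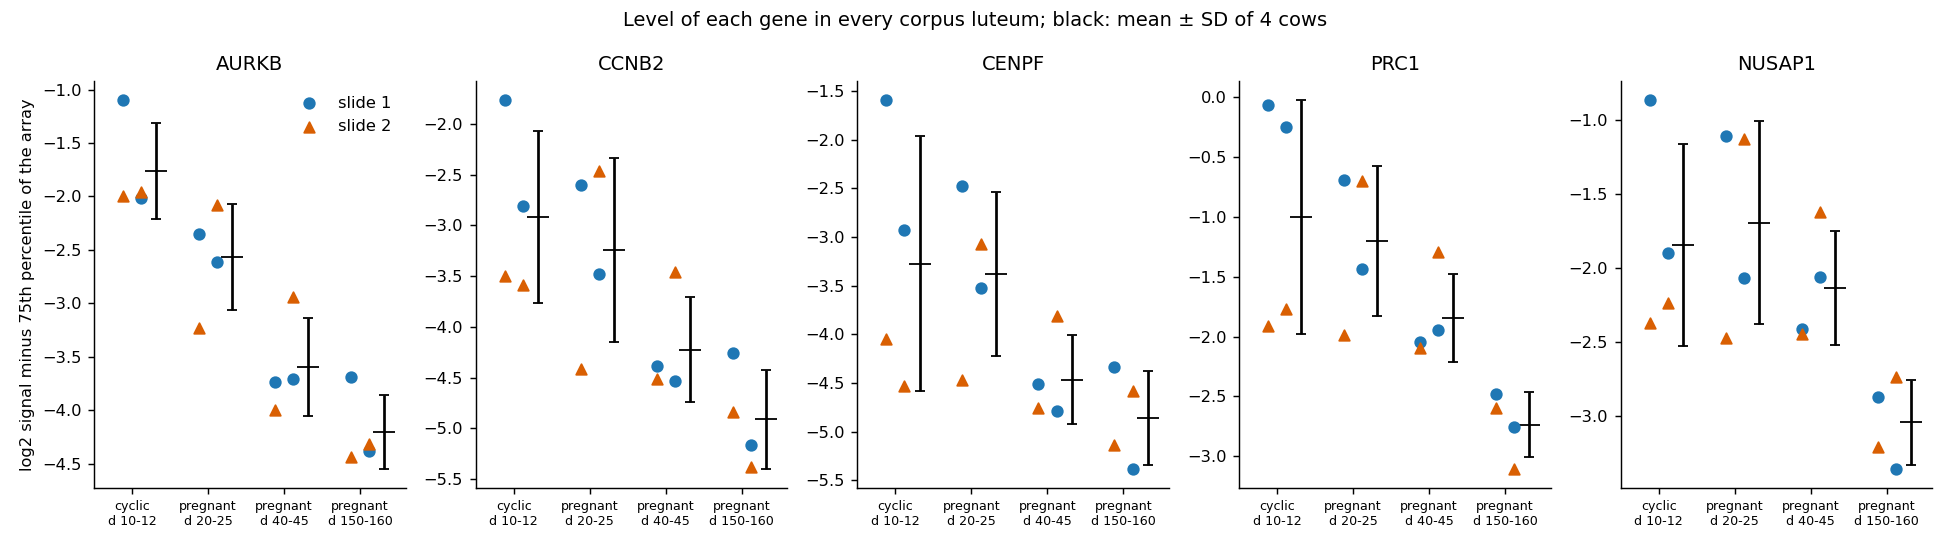
Level of each of the 5 genes in every corpus luteum, as log2 signal minus the 75th percentile of the array, against the group in order of day; circles are arrays of slide 1, triangles arrays of slide 2, and black marks the mean ± SD of 4 cows. AURKB stepped down from cyclic cows (mean -1.77) to days 150-160 (mean -4.20), and in cyclic cows the circles of CENPF and PRC1 stand above the triangles.

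On days 20-25 and days 40-45 every value lay below every cyclic value for AURKB alone, 1 of 5 genes, as it did for 1.7% and 4.57% of all probes. On days 150-160 this held for 4 of the 5 genes, the exception being CENPF, against 5.08% of all probes. The median change over the 5 genes was -0.20 on days 20-25, -1.19 on days 40-45 and -1.74 on days 150-160. Over all probes it was 0.05, 0.01 and 0.03 at these stages. These comparisons share the cyclic cows, so a high or low cyclic cow moves all of them.

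Between stages of pregnancy 1 call was made. On days 40-45 against days 20-25 the 5 differences lay between -1.08 and -0.44, with 0 of 5 called by limma against 0.0167% of all probes called lower. There 1 of 5, AURKB, had an unadjusted p under 0.05, against 8.41% of all probes. Lower without overlap were 0 of 5, against 6.27% of all probes. On days 150-160 against days 40-45 they lay between -0.91 and -0.39, with 0 of 5 called by limma against 0.0168% of all probes called lower. There 2 of 5, PRC1 and NUSAP1, were lower without overlap, against 2.3% of all probes. Both had an unadjusted p under 0.05, as had 9.22% of all probes. AURKB was 3.11 times lower on days 150-160 than on days 20-25 (log2 change -1.63, limma, SE 0.29, adjusted p = 0.0111), and 0.93% of all probes were called lower there. This call was lost within slide 1 and within slide 2, with changes of -1.55 and -1.72 (limma, adjusted p = 0.170 and 0.335). The differences of the other 4 genes between these stages lay between -1.67 and -1.35 (adjusted p between 0.0748 and 0.222). Without replicate 3 of days 20-25 CCNB2 and NUSAP1 passed there (adjusted p = 0.0327 and 0.0384), and without cyclic replicate 1 PRC1 and NUSAP1 did (adjusted p = 0.0484 and 0.0338). AURKB, PRC1 and NUSAP1, 3 of 5 genes, were lower without overlap, against 5.14% of all probes. In the order of days the means of AURKB, CCNB2, CENPF and PRC1 were lower at each step, and that of NUSAP1 was lower at each step after days 20-25, but no step between neighbouring groups passed the test.

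The slides were compared because each holds all 4 groups. In cyclic cows the mean of slide 1 exceeded that of slide 2 by 2.03 for CENPF, 1.69 for PRC1, 1.26 for CCNB2, 0.93 for NUSAP1 and 0.42 for AURKB. Over all probes tested the median of the signed gaps in cyclic cows was -0.0072. Scaling of the arrays keeps such a median near 0, so it does not give the usual size of a gap. In pregnant cows the gap of the 5 genes lay between -0.47 and 0.77. The SD of the 5 genes in cyclic cows was 0.45 to 1.31, against a median SD of 0.30 over all probes tested. It was 0.49 to 0.90 on days 20-25, against 0.25, and 0.37 to 0.51 on days 40-45, against 0.21. On days 150-160 it was 0.27 to 0.49, against 0.31.

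Within a slide there are 2 cows a group. On days 20-25 AURKB differed from cyclic cows by -0.93 on slide 1 and -0.68 on slide 2. On the same days CCNB2, CENPF, PRC1 and NUSAP1 were at -0.75, -0.74, -0.91 and -0.21 on slide 1 and at 0.10, 0.52, 0.50 and 0.51 on slide 2. On days 40-45 AURKB changed by -2.17 on slide 1 and -1.49 on slide 2 and passed in neither (adjusted p = 0.0924 and 0.474). On those days CCNB2 changed by -2.17 and -0.44, while CENPF, PRC1 and NUSAP1 were lower on slide 1, by -2.39, -1.84 and -0.85, and not lower on slide 2, at 0.0056, 0.15 and 0.27. On days 150-160 all 5 genes had negative changes on slide 1, from -2.60 to -1.74, and AURKB and PRC1 passed the test there (limma, adjusted p = 0.0339 and 0.0154). On slide 2 the 5 changes on those days ran from -2.40 for AURKB to -0.57 for CENPF, all lower and none called. For AURKB the change was -2.48 on slide 1 and -2.40 on slide 2, and for CENPF it was -2.60 and -0.57.

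The difference between slides was tested as an interaction of slide and group. Of 11934 probes 0 were called by limma (0% of probes tested, with 518 at an unadjusted p under 0.05). Without replicate 3 of days 20-25 it called 446 probes, without cyclic replicate 2 it called 32, and without any other array 0 to 2. PRC1 had an unadjusted p of 0.0334 and CENPF of 0.0774 (both with adjusted p = 0.975). For AURKB, CCNB2 and NUSAP1 the unadjusted p was 0.719, 0.334 and 0.415. Each slide holds other cows, so the slide and its cows cannot be told apart.

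**Figure D2:**
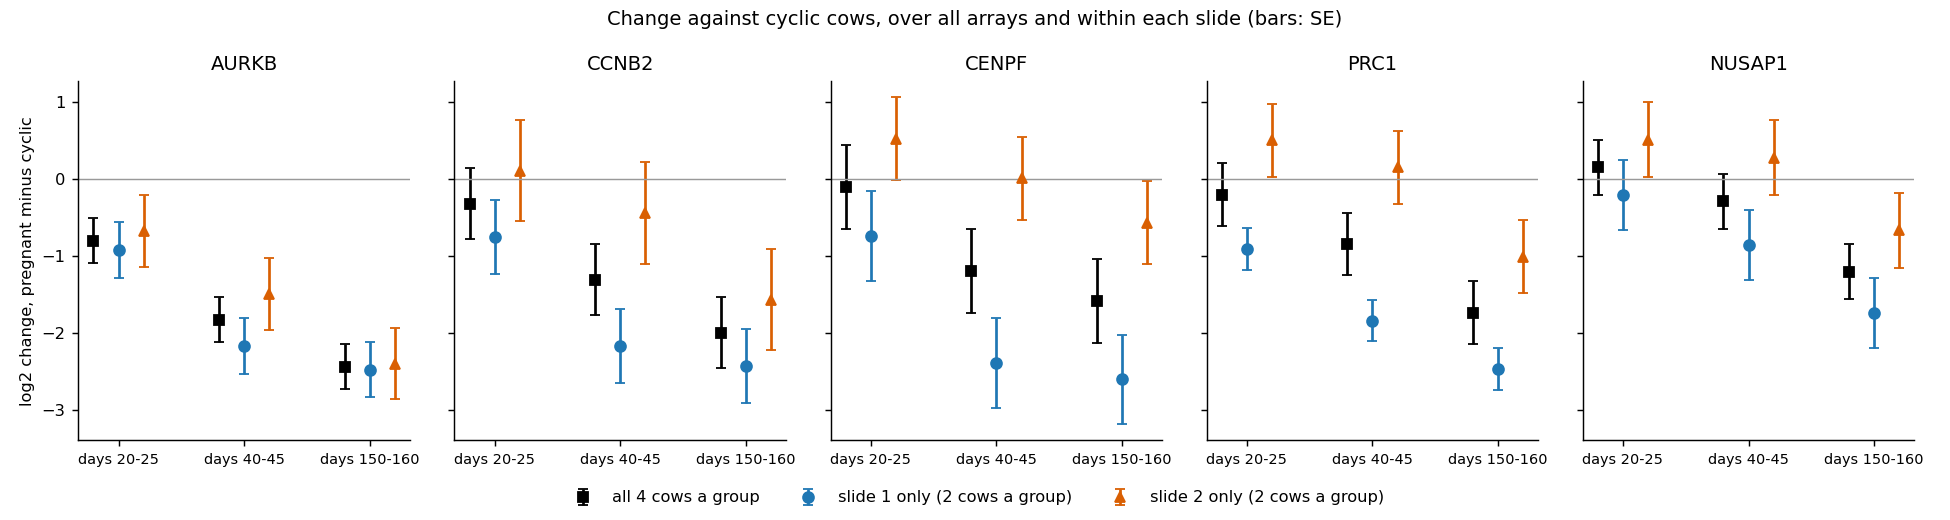
Log2 change of each gene in pregnant minus cyclic cows at the 3 stages; squares use all 4 cows a group, circles and triangles only the 2 cows a group of slide 1 and slide 2, and bars are SE. The 3 marks of AURKB lie together on days 150-160 (-2.44, -2.48 and -2.40), while those of CENPF and PRC1 lie apart, with slide 2 at 0.0056 and 0.15 on days 40-45.

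Over the 16 arrays Pearson r lay between 0.792 and 0.953 for the 10 pairs of genes, with Spearman rho between 0.75 and 0.938. With each group mean removed, r was 0.706 to 0.907. The arrays share slides and scaling, and these correlations are given as a description. Replicate 1 of the cyclic cows was highest in its group for all 5 genes, on average 1.09 above the group mean. Replicate 4 of days 40-45 was highest in its group for all 5 genes, by 0.63 on average. Replicate 3 of days 20-25 was lowest in its group for all 5, at -0.90 on average, and replicate 1 of days 150-160 was highest for 4 of them.

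The probes whose levels followed each gene most closely over the 16 arrays were also found, the 5 of highest Pearson r for each gene among 5724 symbols. The 25 names covered 16 different symbols, with r between 0.898 and 0.953. Of these symbols 6 belong to a list of mitosis genes described next, and 3 of the 6 are among the 5 genes themselves. That list held 28 of the 5724 symbols searched. CCNB2 was nearest to PRC1 (r = 0.953) and was followed most closely after it by KIF20A (r = 0.944), a kinesin of the spindle middle. Next to CCNB2 came PCLAF (r = 0.941), outside the list, and NCAPH (r = 0.933). CENPF was nearest to CDK1 (r = 0.938), the kinase that cyclin B activates. CDCA2 (r = 0.908), outside the list, was also among the 5 closest to CENPF. NUSAP1 was nearest to KIF20A (r = 0.936). AURKB was nearest to TNFAIP6 (r = 0.934), a secreted hyaluronan-binding protein, and then to CCNB2 (r = 0.929), IGF2 (r = 0.922), MEST (r = 0.913) and FSCN1 (r = 0.910). After CCNB2, PRC1 was followed by MFAP5 (r = 0.948), a protein of matrix microfibrils, MEST (r = 0.937) and VCAN (r = 0.930), a matrix proteoglycan.

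A list of 73 mitosis genes, which includes the 5, had 30 on the array and 28 tested. On days 20-25 limma called 0 of 28 against cyclic cows, with 1 of 28 at an unadjusted p under 0.05, against 14.1% of all probes. There 12 changes were below 0, and the median was 0.04, against 0.05 over all probes. On days 40-45 AURKB was the 1 gene of 28 called, against 0.695% of all probes called lower. There 23 of 28 changes were below 0, against 47.8% of all probes, with a median of -0.47 against 0.01. On days 150-160 against cyclic cows 5 of 28 fell and 0 rose, where 3.32% of all probes were called lower and 4.66% higher. Without cyclic replicate 2 the count that fell was 3, and with slide as a block PTTG1 passed as higher. On those days 25 of 28 changes were below 0, against 47.3% of all probes. The median was -0.88, against 0.03 over all probes. Of the 28 genes, 22 were well above background on every array of days 150-160 and 2 on none. Genes dim on every array of days 150-160 were tested only because they were brighter in another group. For such genes a lower value was favoured by the filter, and they enter the counts and medians given here. Without the 5 genes described above, 2 of 23 fell, against 3.32% of all probes, 20 of 23 were below 0 and the median was -0.66. The 2 were SPC24, a kinetochore subunit, at -2.00 (limma, SE 0.44, adjusted p = 0.0144), and CDKN3, a phosphatase that acts on cyclin-dependent kinases, at -0.99 (SE 0.28, adjusted p = 0.0408).

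SPC24 was at -3.68, -3.77, -3.61 and -4.04 on days 150-160, against -0.76, -2.27, -2.24 and -1.83 in cyclic cows. The 2 groups of SPC24 did not overlap. Its call was lost within slide 1 and within slide 2, with changes of -2.21 and -1.79 (limma, adjusted p = 0.0852 and 0.347). CDKN3 was at -6.16, -6.60, -5.52 and -5.86 on days 150-160, against -4.21, -5.09, -5.53 and -5.35 in cyclic cows, and 1 of the 4 arrays of days 150-160 was not well above background. Those groups overlapped in part. The call of CDKN3 was lost with another background correction (normexp, change -0.24, adjusted p = 0.371), in a fit of the 2 groups alone (adjusted p = 0.152) and without any of 10 of the 16 arrays (adjusted p up to 0.117). It was also lost within slide 1 and within slide 2, with changes of -1.73 and -0.25 (limma, adjusted p = 0.0660 and 0.734). With no filter on dim probes the adjusted p of CDKN3 was 0.0530. CDKN3 was also lower on days 150-160 than on days 20-25 (change -1.21, adjusted p = 0.0421).

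Of the mitosis genes that were not called, the 4 with the brightest probes are given here. On days 150-160 against cyclic cows PTTG1, the securin that inhibits separase until sister chromatids part, had a change of 0.54 (adjusted p = 0.0588). It passed with slide as a block (adjusted p = 0.0416), without cyclic replicate 3 (adjusted p = 0.0363) and without replicate 4 of days 20-25 (adjusted p = 0.0173). The kinase PLK1 had -0.30 (adjusted p = 0.409), the checkpoint protein MAD2L1 had -0.66 (adjusted p = 0.223), and CKS1B, a small subunit of cyclin-dependent kinase complexes, had -0.07 (adjusted p = 0.826). PTTG1 lay at 1.02 to 1.26 on days 150-160, against 0.44 to 0.89 in cyclic cows.

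**Figure D3:**
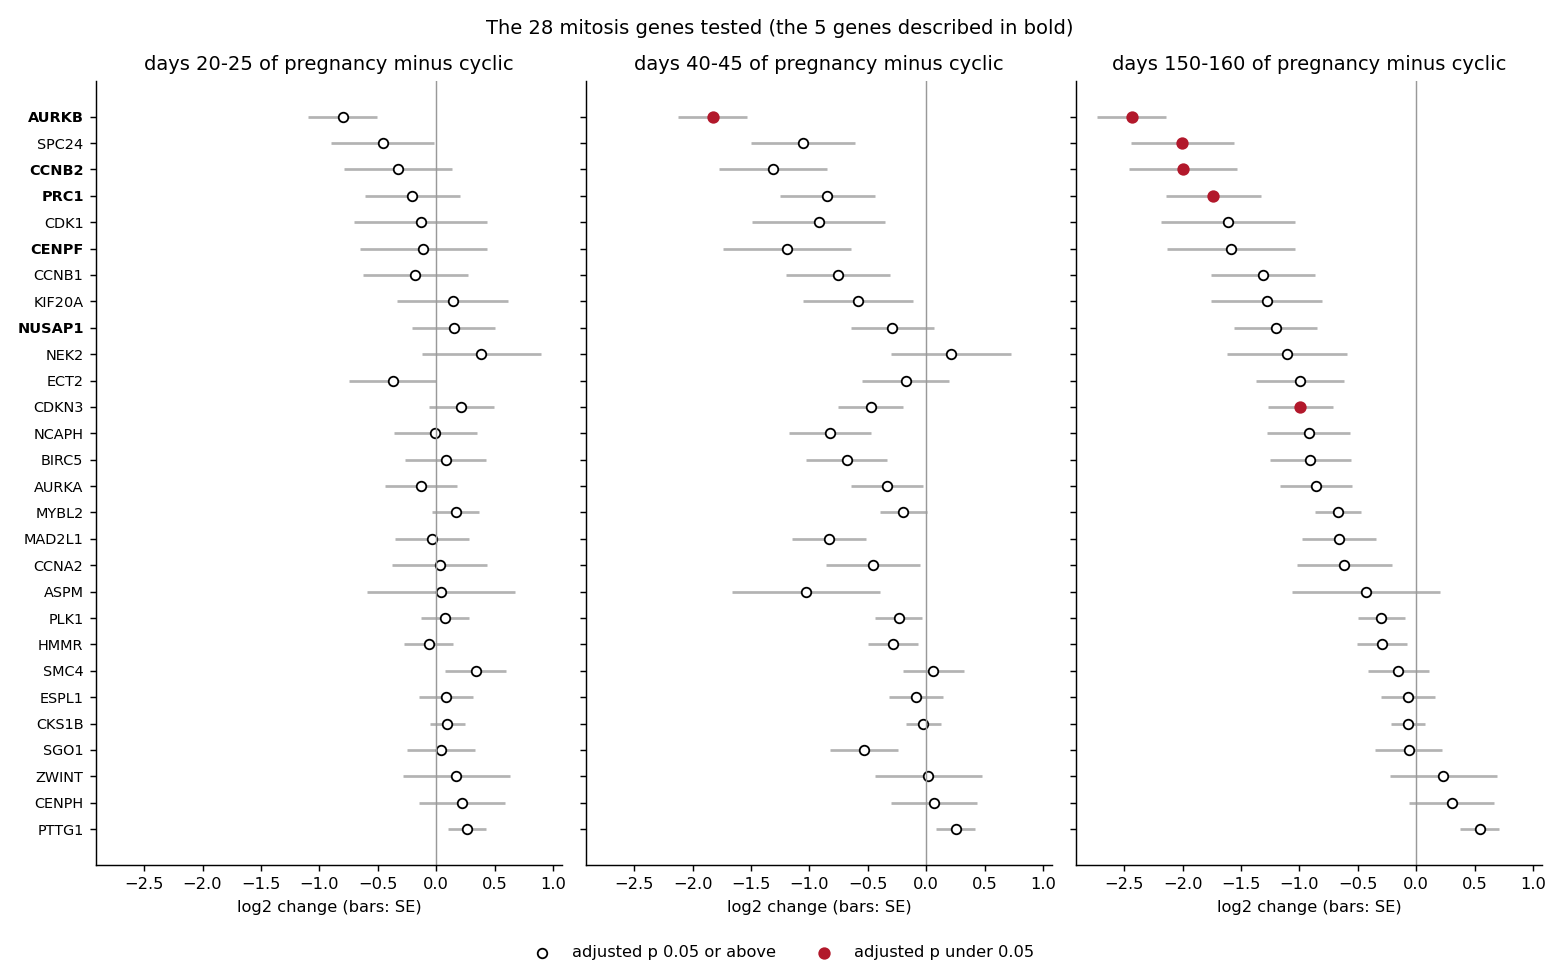
Log2 change (x axis, bars SE) of the 28 mitosis genes tested at 3 stages of pregnancy minus cyclic cows, ordered by the change on days 150-160; filled points had an adjusted p under 0.05. AURKB is filled on days 40-45 (-1.83), and AURKB, SPC24, CCNB2, PRC1 and CDKN3 are filled on days 150-160, where 25 of 28 points lie left of 0.

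Genes of DNA replication, the earlier stage of the cycle at which DNA is copied, were listed separately. Of 45 genes 25 were on the array and 24 tested. By limma 0 of 24 were called at any stage against cyclic cows, with 3, 3 and 4 of 24 at an unadjusted p under 0.05 on days 20-25, 40-45 and 150-160. Of all probes 14.1%, 14.7% and 23.5% had such a p at these stages. The median was 0.12 on days 20-25, 0.08 on days 40-45 and -0.02 on days 150-160. On days 150-160 against days 20-25, 20 of 24 changes were below 0, against 53.8% of all probes. Their median was -0.13, against -0.03 over all probes, and 0 were called by limma. In the mitosis list 25 of 28 changes were below 0 in that comparison, with a median of -0.78. None of the 4 replication genes with the brightest probes passed on days 150-160 against cyclic cows. Of the single-stranded DNA binding subunits, RPA2 had 0.39 (adjusted p = 0.113, and 0.0412 without cyclic replicate 2) and RPA3 had 0.05 (adjusted p = 0.898). TYMS, which makes thymidylate, had -0.27 (adjusted p = 0.456), and RFC3, a subunit of the clamp loader, had -0.04 (adjusted p = 0.922). The lowest change of the list was that of RRM2, a subunit of ribonucleotide reductase, at -1.66 (adjusted p = 0.104); it was the third closest to NUSAP1 in pattern (r = 0.914).

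Of 26 genes that control the first stage of the cycle and the cyclin-dependent kinases, 13 were on the array and 12 tested. On days 150-160 RB1, the retinoblastoma protein that restrains entry into the cycle, rose by 1.06 (limma, SE 0.28, adjusted p = 0.0327), 1 of 12 genes where 4.66% of all probes were called higher. Its level was -0.84, -1.75, -1.24 and -2.11 on days 150-160, against -1.80, -2.45, -2.80 and -3.14 in cyclic cows, so that the lowest value of days 150-160 lay below the highest of cyclic cows. The call of RB1 was lost without any 1 of 5 arrays, cyclic replicates 2, 3 and 4 and replicates 1 and 3 of days 150-160 (adjusted p up to 0.0925), and with the 2 groups alone (adjusted p = 0.151). It was also lost within slide 1 and within slide 2, with changes of 0.83 and 1.29 (limma, adjusted p = 0.224 and 0.218). On days 20-25 RB1 had a change of 1.31 without passing the test (limma, adjusted p = 0.0704). It lay at -1.38 to -1.09 then, against -3.14 to -1.80 in cyclic cows. The median change of the list was 0.19 on days 20-25, -0.08 on days 40-45 and -0.06 on days 150-160. Of the 4 uncalled genes with the brightest probes, the inhibitor CDKN1C had 0.93 (adjusted p = 0.105, and 0.0396 without replicate 3 of days 40-45) and cyclin D3, CCND3, had 0.56 (adjusted p = 0.275) on days 150-160. CCNG1 had -0.32 (adjusted p = 0.289) and BTG1 had 0.02 (adjusted p = 0.969).

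**Figure D4:**
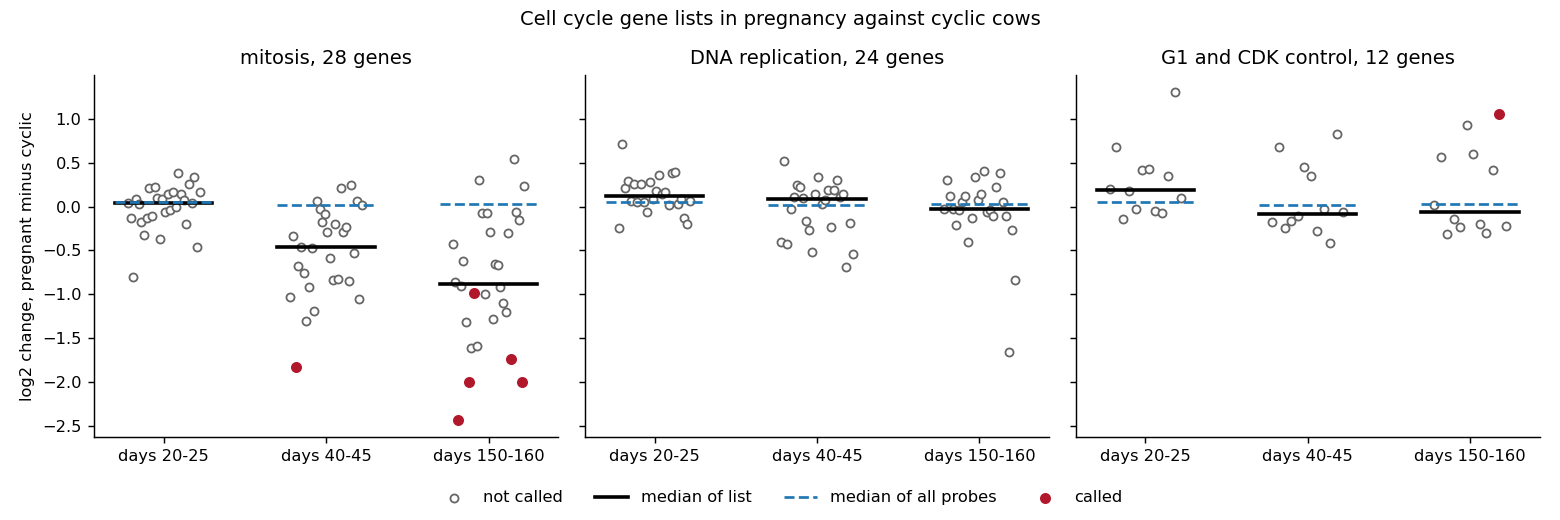
Log2 change of each tested gene of the 3 cell cycle lists in pregnant minus cyclic cows, by stage; black lines are list medians, dashed lines the median of all probes, and filled points had an adjusted p under 0.05. The mitosis median moved to -0.47 and -0.88 on days 40-45 and 150-160, while those of DNA replication were 0.08 and -0.02.

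Markers of the cell types a gland can hold were read beside these changes, on days 150-160 against cyclic cows, where 3.32% of all probes were called lower and 4.66% higher. Sums are of signals in units of the array's 75th percentile. Of 7 fibroblast markers 4 fell (COL1A1, COL1A2, COL3A1 and THY1), with a median of -1.13, and their sum was 31.8 to 45.4 on days 150-160, against 49.2 to 76.4 in cyclic cows. The fibroblast markers of highest signal, COL3A1 and LUM, had changes of -1.13 (adjusted p = 0.0326) and -0.50 (adjusted p = 0.156). Of 14 endothelial markers 3 rose (ENG, TEK and FLT1), with a median of 0.43 and sums of 35.4 to 63.7 against 23.3 to 38.2. The endothelial markers of highest signal, EGFL7 and ROBO4, had 0.62 and 0.49 (adjusted p = 0.115 and 0.202). Of 8 macrophage markers 1 rose and 2 fell (median -0.50, sums 6.36 to 14.0 against 7.12 to 19.7). Of 11 T and NK cell markers 1 fell, while 6 changes were above 0 (median 0.10, changes from -4.07 to 0.32). The sums of these 11 were 0.47 to 1.25 against 1.04 to 4.23. Of 7 granulocyte markers 3 fell, and those 3 were well above background on no array of days 150-160 (sums 2.24 to 3.78 against 2.44 to 8.32). In each pregnant group 3 of the 7 were well above background on no array. A marker dim in all pregnant groups was tested only because it was bright in cyclic cows. That it was lower in pregnancy was thus set by the filter. Of 3 B and plasma cell markers 1 fell (sums 0.35 to 0.62 against 0.48 to 1.25). None of the 8 steroidogenic markers (median 0.17), 6 granulosa markers (median -0.05), 5 pericyte and smooth muscle markers (median 0.56) and 2 red blood cell markers (median -0.01) was called by limma. In these lists 1, 1, 1 and 0 had an unadjusted p under 0.05, against 23.5% of all probes. On days 40-45, when AURKB was called and 0.695% of all probes were called lower, other markers were lower too. Of 7 granulocyte markers 3 fell (median -1.16, sums 1.60 to 2.79 on days 40-45 against 2.44 to 8.32 in cyclic cows). Of the 7, 3 were well above background on no array of days 40-45, and the same limit of the filter holds here. Of 8 macrophage markers 1 fell and all 8 changes were below 0 (median -0.74, sums 6.77 to 12.9 against 7.12 to 19.7). On those days 1 of 11 T and NK cell markers fell (sums 0.38 to 0.99 against 1.04 to 4.23). The 11 had a median of -0.20, with 10 changes below 0 and a lowest change of -3.42. Of 3 B and plasma cell markers 1 fell then (sums 0.33 to 0.53 against 0.48 to 1.25). Limma called 0 of the 7 fibroblast and 0 of the 14 endothelial markers then. An unadjusted p under 0.05 was found for 0 and 4 of them, against 14.7% of all probes. On days 150-160 against days 20-25, where AURKB fell as well and 0.93% of all probes were called lower, 3 of 7 fibroblast markers fell. All 7 changes were below 0 there (median -1.07, sums 31.8 to 45.4 on days 150-160 against 63.0 to 81.1 on days 20-25). In that comparison 1 of 8 macrophage markers rose, where 76 of 11940 probes were called higher. The macrophage list had 5 of 8 changes below 0 and a median of -0.23, with a highest change of 3.62. The part of these cell types in the changes of the 5 genes was not tested.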

How the data were processed

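Total RNA was amplified linearly, labelled with Cy3 and hybridised to 1-colour arrays of 15744 features, per the labels' protocols, and read with Agilent Feature Extraction 9.5, per the submitters' processing notes. The deposited processed signal is an intensity, with background and spatial trend subtracted and no scaling between arrays, per the file headers. The deposited value table is on a log2 scale; its columns matched the scaled scanner signals to within 0.0046 after removal of 1 constant per array, and it served as an alternative. Its column medians lay between -3.18 and -2.98, and genes were not centred.

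Control spots (536) were dropped and 220 flagged spots set to missing. A probe was tested when well above background on at least 3 of 4 arrays of a group (11941 probes, and 11940 for days 150-160 and the F test). Probes were named through accessions, gene IDs, symbols or descriptions and the RefSeq gene table of assembly ARS-UCD2.0, used for names alone; 8107 probes have no symbol. limma 3.58.1 in R 4.3.3 fitted group over all 16 arrays (12 residual and 2.77 prior degrees of freedom), two-sided, with Benjamini-Hochberg adjustment and a threshold of 0.05. The scripts were tested on simulated data. The 5 genes, the 3 cell cycle lists and the 10 marker lists were chosen with earlier results of these data known. Beside the 5 genes, named genes were every list gene called against cyclic cows and, per cell cycle list, up to 4 uncalled ones with the highest mean signal; RRM2, the marker genes and the probe sharing bases with CCNB2 come from separate rules or were chosen after values were seen. A list gene was represented by its brightest probe. Replicate numbers were checked for pairing. Same-numbered arrays had r from 0.0010 to 0.291 in their deviations from group means, with a mean of 0.108. The mean r was 0.064 for other numbers on the same slide and -0.086 across slides. These differences were not tested. The numbers were not taken to pair, and the main fit holds no block for number or slide. Alternatives were normexp, the value table, quantile scaling, 2 filters, a floor at background, slide and replicate blocks, single slides, the 2 groups alone and each array left out.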

Additional observations from a re-analysis of the deposited data

Results flagged for a closer look

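In 80 groups of 4 arrays, over 20 genes, 3 held 1 array whose gap to the nearest of the others was above Dixon's 95% critical value; chance flags about 1 group in 20. AURKB was at -1.09 in replicate 1 of the cyclic cows, while the other 3 lay between -2.02 and -1.96. AURKB was at -3.68 in replicate 1 of days 150-160, with the others between -4.43 and -4.31. CCNB2 was at -3.46 in replicate 4 of days 40-45, with the others between -4.53 and -4.38.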

How the results depend on the processing

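Over the 5 genes and their comparisons, 383 values from other settings kept direction and side of the threshold, 7 reversed, 11 lost and 9 gained a call, and with 1 array left out 615 kept them, 12 reversed, 1 lost and 12 gained a call; PRC1 lost its call on days 150-160 without cyclic replicate 2, and NUSAP1 passed there under the replicate block (adjusted p = 0.0282), with quantile scaling (0.0495) and without cyclic replicate 3 (0.0392). CENPF passed without cyclic replicate 4 (change -2.00, adjusted p = 0.0456). The cause was not tested. The replicate block, for numbers that were not shown to pair cows (9 of 16 arrays correlated best with their own number), gave 0 probes for days 40-45 against 20-25, 14 for days 150-160 against 40-45 and 8 mitosis genes lower on days 150-160; its other counts stayed within 1.5 times. Dim probes are limited by signal over background.

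Within slide 2 the change against cyclic cows reversed to 0.10 for CCNB2, 0.52 for CENPF and 0.50 for PRC1 on days 20-25, to 0.0056 for CENPF, 0.15 for PRC1 and 0.27 for NUSAP1 on days 40-45, and to 0.17 for CKS1B, 0.17 for MAD2L1, 0.24 for RFC3 and -0.21 for BTG1 on days 150-160. Within slide 1 it reversed to -0.21 for NUSAP1 on days 20-25 and to -0.064 for RPA3 on days 150-160. With 1 array left out, days 20-25 ranged from -0.58 to 0.068 for CCNB2, -0.53 to 0.45 for CENPF, -0.51 to 0.11 for PRC1 and -0.047 to 0.48 for NUSAP1. NUSAP1 ranged from -0.47 to 0.036 on days 40-45. On days 150-160 the ranges were -0.16 to 0.044 for CKS1B, -0.19 to 0.070 for RFC3, -0.071 to 0.19 for RPA3 and -0.18 to 0.22 for BTG1.

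Counts of probes called against cyclic cows that moved by over 1.5 times were, on days 20-25 (35 called), 78 with slide as a block, 3 and 6 within slide 1 and slide 2, and 2 with the 2 groups alone. On days 40-45 (147 called) they were 94 with normexp, 90 with no filter, 51 and 12 within the slides and 73 with the 2 groups alone. On days 150-160 (953 called) they were 250 and 21 within the slides and 314 with the 2 groups alone. Days 40-45 against 20-25 (4 called) gave 8 with no filter, 1 for probes above background on all arrays, 7 with slide as a block, 0 within each slide and 7 with the 2 groups alone. Days 150-160 against 40-45 (5 called) gave 9 with the value table, 17 with no filter, 2 for probes above background on all arrays, 9 with the floor, 13 with slide as a block, 1 and 0 within the slides and 1 with the 2 groups alone. Days 150-160 against 20-25 (187 called) gave 3 and 7 within the slides and 118 with the 2 groups alone, and the F test (460 called) gave 42 and 12 within the slides. The interaction called 4 with no filter. Mitosis genes lower on days 150-160 (5) were 0 within slide 2 and 3 with the 2 groups alone.

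Leaving out 1 array at a time gave 4 to 85 probes on days 20-25, 63 to 226 on days 40-45 and 580 to 1106 on days 150-160 against cyclic cows. It gave 0 to 8 on days 40-45 against 20-25, 2 to 19 on days 150-160 against 40-45, 88 to 243 on days 150-160 against 20-25, 267 to 503 in the F test, 0 to 446 for the interaction and 3 to 7 mitosis genes lower.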
